A study of Mus musculus with 35 samples.

Results

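The genes described here are the constant and variable (V) gene segments of the immunoglobulins, measured by RNA sequencing of whole mouse lung. A row of the count table was taken when its biotype was IG_C_gene or IG_V_gene and it held at least 10 counts in at least 3 of the 34 libraries with a group. This rule kept 161 of 231 such rows, out of 54532 genes in the table: 12 constant genes and 149 V segments, of which 75 belong to the kappa locus (Igkv), 71 to the heavy chain locus (Ighv) and 3 to the lambda locus (Iglv). The counts themselves chose the members, so their presence in the lung is not a result. A member may have met the rule through the libraries of a single group, so counts and medians of members are not independent of the rule. At the edge of the rule, 15 members met the minimum in exactly 3 libraries, with largest counts between 13 and 408, and 8 rows met it in exactly 2 libraries, with largest counts between 10 and 54. Of the 70 rows left out, 6 had no count in any library, and the lambda constant gene Iglc4 never exceeded 5 counts. Jchain, which encodes the joining chain, is not a member and was kept as a reference.

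The libraries came from male and female mice at least 3 months old, kept for 6 weeks in room air (normoxia) or at 10% oxygen (hypoxia). Control mice were B6/129SJ2. Cav1-KO mice carry the Cav1(tm1Mls/)J allele and lack caveolin-1, the coat protein of caveolae, in all tissues. Cav1-RC mice are Cav1-KO mice in which caveolin-1 was reconstituted in endothelial cells, and the promoter and the species of the added gene were not given in the sources used here. Sex, genotype and oxygen level made 12 groups of 3 mice each, except for 2 mice each in the normoxia groups of Cav1-KO females and Cav1-RC females.

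Immunoglobulins are made by B cells, which carry them on the surface, and by plasma cells, which secrete them in large amounts. A heavy chain joins 1 rearranged V segment to a constant region that sets the class: Ighm for IgM and Ighd for IgD in naive B cells, and Ighg, Igha or Ighe for IgG, IgA and IgE after class switching. A light chain joins its own V segment to a kappa (Igkc) or lambda (Iglc) constant region. IgA and IgM are linked into polymers by the joining chain and carried across the airway epithelium by the polymeric immunoglobulin receptor, Pigr. Bulk RNA from a whole lung cannot tell fewer B or plasma cells from less immunoglobulin RNA in each cell.

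The 6 V segments printed below differ in the few codons after the conserved cysteine near their 3′ end. This part begins the antigen-contacting loop and joins the J segment. Not all segments differ there: Ighv1-55, Ighv1-59 and Ighv1-69 have the same last 60 bases. The last 60 bases of the V exon are shown for 6 segments, each on its own coding strand in the GRCm38 sequence, with the codon of that cysteine in capitals. Iglv1 and Iglv2 are lambda segments 86.7% identical to each other, Iglv1 being the V segment with the highest mean level. Igkv3-2, Igkv3-4 and Igkv10-96 came next, and Igkv14-126 is the segment of 1 large outlying value described later. Iglv1 and Iglv2 lie on the minus strand at chr16:19085017-19085076 and chr16:19260401-19260460, Igkv3-2, Igkv3-4 and Igkv14-126 on the plus strand at chr6:70699008-70699067, chr6:70672318-70672377 and chr6:67896583-67896642, and Igkv10-96 on the minus strand at chr6:68631963-68632022, in each case in exon 2.
Iglv1: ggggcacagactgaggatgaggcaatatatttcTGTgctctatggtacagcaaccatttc
Iglv2: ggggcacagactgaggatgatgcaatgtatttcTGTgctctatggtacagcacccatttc
Igkv3-2: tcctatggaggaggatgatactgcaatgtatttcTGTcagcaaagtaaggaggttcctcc
Igkv3-4: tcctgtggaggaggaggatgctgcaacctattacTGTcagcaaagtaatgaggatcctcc
Igkv10-96: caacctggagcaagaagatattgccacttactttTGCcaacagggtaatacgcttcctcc
Igkv14-126: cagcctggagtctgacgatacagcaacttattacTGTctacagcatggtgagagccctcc

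The motif TANTNNTGN covers a tyrosine codon, a codon that begins with T and the cysteine codon, but also other codons of the forms TAN and TGN. The match nearest the 3′ end of Igkv1-135, for example, ends in TGG. It was searched on both strands in the last 60 bases of each transcript. The motif was found in 144 of the 149 V members, or 96.6%, in 58.9% of 158 V pseudogenes and in 12.1% of 141029 other transcripts. On the sense strand alone it was found in the same 144 V members and in 5.74% of the other transcripts. The V segments resembled each other: the median identity of a V member to its nearest other member was 90.2%, 76 of 149 had a neighbour at 90% or more and 22 at 95% or more. Whether reads were shared between near copies was not tested, and values of single V segments are uncertain where such copies exist.

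The lambda constant genes also resemble each other. A stretch of 120 aligned bases near the 5′ end of the constant region is printed for Iglc1, Iglc2 and Iglc3, along the minus strand of chromosome 16 (GRCm38), at chr16:19061949-19062068, chr16:19198730-19198849 and chr16:19065559-19065678, with capitals at the 30 positions where the 3 genes differ. Over the whole constant region Iglc2 and Iglc3 were 94.3% identical, and Iglc1 shared 67.5% and 68.1% of its bases with them.
Iglc1: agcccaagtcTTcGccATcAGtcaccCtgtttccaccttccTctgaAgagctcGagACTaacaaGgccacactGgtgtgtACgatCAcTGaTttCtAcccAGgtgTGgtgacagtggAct
Iglc2: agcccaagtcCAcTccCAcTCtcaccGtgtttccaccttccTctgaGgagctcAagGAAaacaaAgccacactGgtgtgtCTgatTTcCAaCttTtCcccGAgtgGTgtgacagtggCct
Iglc3: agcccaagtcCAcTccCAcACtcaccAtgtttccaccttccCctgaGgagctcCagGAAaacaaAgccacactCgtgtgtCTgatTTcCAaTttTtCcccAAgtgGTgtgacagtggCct

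Total counts per library ran from 12425535 to 33343006, so that 3 counts, used as the floor of detection, correspond to 0.090 to 0.241 CPM, the count divided by the scaled library total. Cav1 ran from 989 to 1356 CPM in the 12 Control libraries, from 1.61 to 4.0 in the 11 Cav1-KO libraries and from 1.48 to 6.56 in the 11 libraries labelled Cav1-RC, so the counts did not show the reconstitution. In 4 libraries, called sex-discordant here, Xist or Ddx3y, both sex-linked genes, did not match the labelled sex. Male Cav1-RC normoxia replicates 1 and 2 and male Control hypoxia replicate 2 had Xist at 752, 874 and 760 CPM. Female Cav1-KO hypoxia replicate 2 had Ddx3y at 7.86 CPM, where male Cav1-KO hypoxia mice averaged 142 CPM. Xist averaged 698 CPM in female Cav1-KO hypoxia mice (log2 fold change against normoxia -0.10, SE 0.13), so the mismatch of that library rests on Ddx3y. The mice of 12 of the 34 libraries are named on the sheet of western blot measurements (the blot list): all 6 Cav1-KO hypoxia, all 3 male Control hypoxia, and replicate 1 of the Control females in normoxia, the Control females in hypoxia and the Cav1-RC females in normoxia. Counts of called members with and without these sets stand with the alternatives after the results.

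Igkc, on chromosome 6 at 70726435 to 70726966, was the most abundant member per unit length. Deposited FPKM (fragments per length of the gene and per mapped library size) averaged 1644 over the 34 libraries, with a lowest value of 78.2, a median of 935 and a highest of 8642. Among the heavy chains on chromosome 12, Igha (113254830 to 113260236) ran from 2.95 through a median of 211 to 1448 FPKM. Ighm (113418558 to 113422730) ran from 17.4 through 75.7 to 3801 FPKM. The ranges of these genes over the libraries overlapped widely, so the order of Igkc, Igha and Ighm by mean FPKM, 1644, 317 and 216, does not hold in every library. Jchain had a mean of 116 FPKM and Iglc1 of 99.4. The IgG genes followed at mean FPKM of 57.4 for Ighg2c, 36.7 for Ighg2b, 10.3 for Ighg1 and 2.35 for Ighg3, with the other light chains Iglc2 at 30.0 and Iglc3 at 8.23. Ighe, the IgE constant gene, had a mean of 0.226 FPKM and exceeded the floor in 6 libraries. The highest library exceeded the lowest 640-fold for Ighg2b, 501-fold for Igha, 217-fold for Ighm, 111-fold for Igkc, 50.1-fold for Ighg3 and 6.45-fold for Ighd in CPM.

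**Figure D1:**
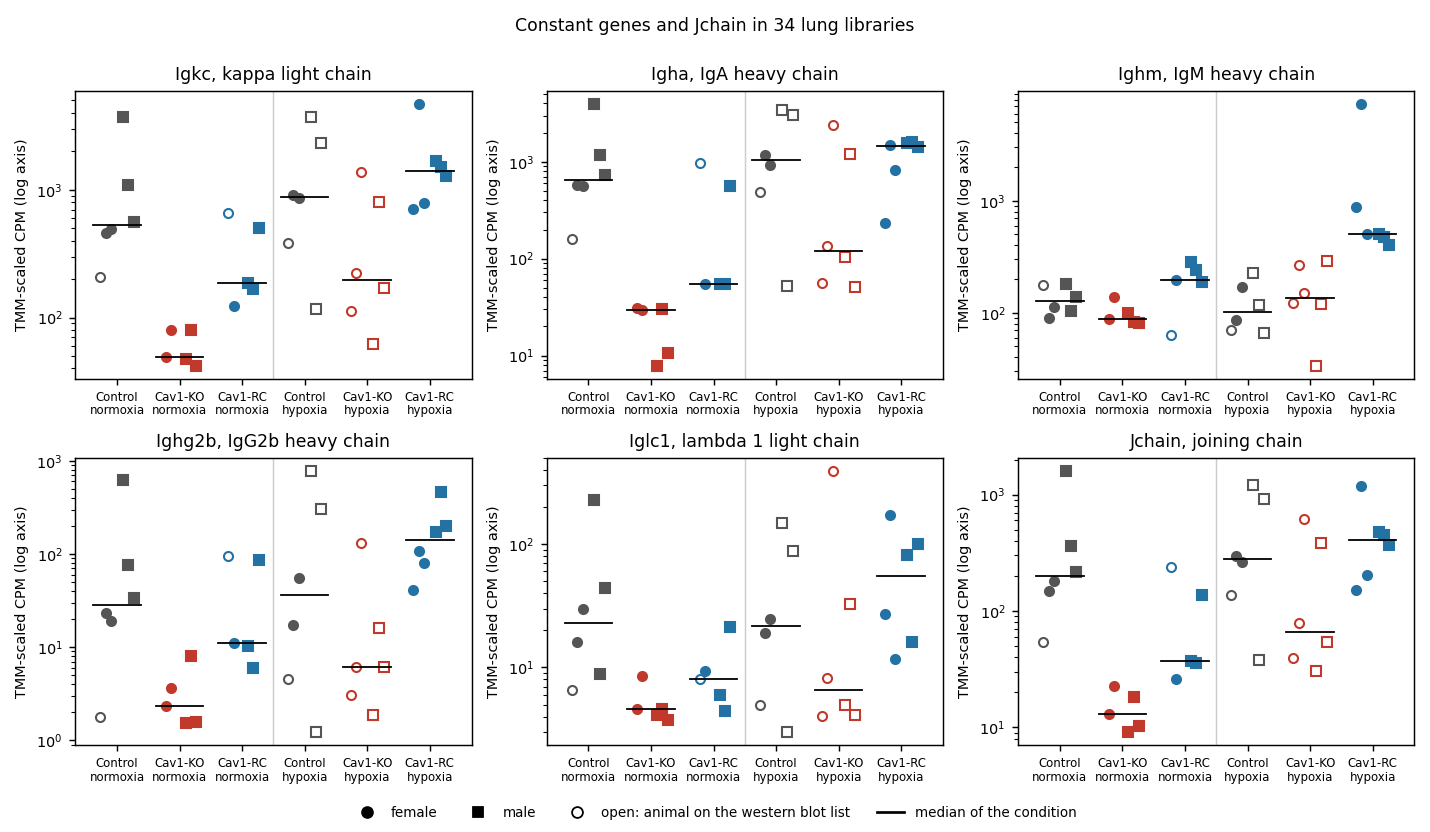
CPM (log axis) of constant genes and Jchain in each of the 34 libraries by genotype and oxygen level. Circles are female and squares male mice, and open marks are mice on the blot list. Igkc in Cav1-KO normoxia lies between 41.9 and 80.1 CPM, below every Control normoxia library (208 to 3722).

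In normoxia, Cav1-KO lungs held less Igkc, Igha and Jchain RNA than Control lungs, while Ighm, the constant gene of naive B cells and IgM plasma cells, was not called different. Igkc was at 208, 461 and 495 CPM in female and 3722, 1087 and 559 CPM in male Control mice, and at 49.5 and 80.1 CPM in female and 47.0, 79.9 and 41.9 CPM in male Cav1-KO mice. All 5 Cav1-KO mice were below all 6 Control mice, and the sexes combined gave a log2 fold change of -3.76 (SE 0.87, adjusted p = 0.00433, edgeR quasi-likelihood test with Benjamini-Hochberg adjustment over all genes).

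Igha was at 159, 583 and 569 CPM in female and 3924, 1180 and 726 CPM in male Control mice. It was at 31.2 and 29.7 CPM in female and 7.83, 30.6 and 10.6 CPM in male Cav1-KO mice. Again the groups did not overlap, with a log2 fold change of -5.35 (SE 1.24, adjusted p = 0.00437, edgeR). Jchain followed at -4.33 (SE 0.99, adjusted p = 0.00382, edgeR), without overlap. Ighg2b at -4.13 (SE 1.30, adjusted p = 0.0318, edgeR) and Iglc3 at -1.71 (SE 0.52, adjusted p = 0.0268, edgeR) were also called, with overlapping groups, and both calls were lost when 1 library was left out: for Ighg2b without male Control replicate 1 (-3.07), female Control replicate 2, male Cav1-KO replicate 1 or 3 or either female Cav1-KO mouse, and for Iglc3 without female Control replicate 1, male Cav1-KO replicate 3 or either female Cav1-KO mouse. Over 19 alternatives Ighg2b ran from -4.76 to -3.07 (adjusted p 0.00101 to 0.162) and Iglc3 from -1.89 to -1.40 (adjusted p 0.00358 to 0.114). Ighm was at 89.6 to 179 CPM (median 126) in the 6 Control mice and 80.3 to 138 CPM (median 87.9) in the 5 Cav1-KO mice, so these ranges overlapped.

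Of the 160 members that passed the low-count filter, 39 were called lower in Cav1-KO normoxia and 0 higher, beside 4.13% of all genes called lower (called: log2 fold change beyond 1 in size and adjusted p under 0.05 by edgeR). The median log2 fold change of the members was -3.04, against -0.01 over all genes. Among V segments named by rank of p-value, Igkv14-111 was at 1.51 to 23.7 CPM in Control and 0.311 to 0.829 CPM in Cav1-KO mice, a log2 fold change of -3.71 (SE 0.86, adjusted p = 0.00435, edgeR). Igkv1-110 gave -3.01 (SE 0.78, adjusted p = 0.00976, edgeR), and Igkv12-44 -5.93 (SE 1.40, adjusted p = 0.00492, edgeR), the latter with no more than 0.249 CPM in any Cav1-KO mouse and at -3.92, still called, without male Control replicate 1. Igkv1-110 lost its call without either female Cav1-KO mouse. Leaving out 1 library took the count to between 2 and 45: to 19 without male Control replicate 1, 25 without female Control replicate 3, 23 and 18 without male Cav1-KO replicates 1 and 3, and 2 and 5 without female Cav1-KO replicates 1 and 2, each of which leaves a single female Cav1-KO mouse. In those last fits Igkc had an adjusted p of 0.056 and Jchain of 0.054 without female Cav1-KO replicate 1, and Igha of 0.056 and 0.052 without replicates 1 and 2. Over the 19 alternatives the log2 fold change stayed between -3.98 and -3.21 for Igkc (adjusted p 5.81e-06 to 0.0556), between -5.75 and -4.84 for Igha (2.68e-08 to 0.0556) and between -4.58 and -3.67 for Jchain (1.4e-06 to 0.0538).

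In males alone, 37 of the 55 members tested were called lower in Cav1-KO normoxia and 0 higher, beside 3.74% of genes called lower. They included Igkc (-4.99, SE 0.73), Igha (-6.89, SE 0.87), Jchain (-5.86, SE 0.83), Ighg1 (-7.45, SE 1.89), Ighg2b (-6.0, SE 1.27), Iglc1 (-4.49, SE 1.07) and Iglc2 (-3.07, SE 0.72) among the constant genes and the reference. Ighg1, Ighg2b, Iglc1 and Iglc2 each lost their call without any 1 of the 3 male Cav1-KO mice, and stood at -3.65, -3.86, -2.68 and -1.73, still called, without male Control replicate 1. Iglc1 lost it in further alternatives and kept it in 9 of 15. Igkc, Igha and Jchain kept theirs in all 15 alternatives. The V segment with the smallest p-value there was Igkv2-109, at 8.11, 9.12 and 11.2 CPM in male Control mice and 0, 0.166 and 0.162 CPM in male Cav1-KO mice. The male count was 60 without Control replicate 3 and 9, 11 and 8 without Cav1-KO replicates 1, 2 and 3. In females 0 of 41 members were called by edgeR, beside 0.122% of all genes in either direction, with 12 at an unadjusted p under 0.05, 4 called by DESeq2, and 17 called by edgeR without Control replicate 1, which is on the blot list. The log2 fold change of Igkc there was -2.60 (SE 0.45, adjusted p = 0.123, edgeR), with 2 Cav1-KO mice below all 3 Control mice, and no member's fold change was called different between the sexes in this comparison.

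**Figure D2:**
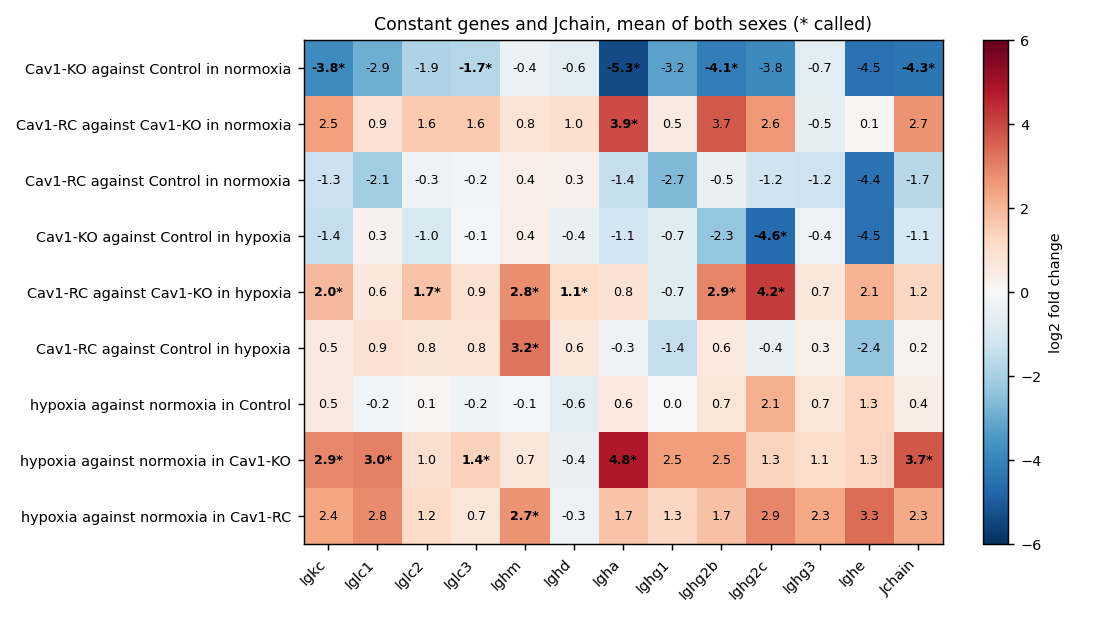
Log2 fold change, mean of both sexes, as color for the constant genes and Jchain (columns) in the 9 comparisons (rows), with a star on each one called. Igkc, Igha and Jchain have negative values in Cav1-KO against Control in normoxia, at -3.76, -5.35 and -4.33.

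Genes of the cells that make antibody were measured in the same comparison. Of 20 B cell genes, 6 fell and 0 rose in Cav1-KO normoxia, among them Cd79a, a subunit of the B cell receptor, Pax5, the B lineage transcription factor, Vpreb3, Cr2 and Cxcr5. The median log2 fold change of the list was -0.86. The summed level of the 20 genes was 219 to 488 CPM in Control and 177 to 227.6 CPM in Cav1-KO normoxia. Of 18 plasma cell genes, 4 fell and 0 rose: Jchain, Pou2af1 at -1.07, Mzb1 at -1.95 and Derl3 at -1.40, which act in antibody gene expression and in folding and export of secretory proteins. The summed level of the 18 genes overlapped, at 921 to 3000 CPM (median 1257) in Control and 1203 to 1320 CPM (median 1221) in Cav1-KO normoxia, and the median log2 fold change of the list was -0.23. Pigr was at 26.9 and 35.3 CPM in female and 27.6, 43.4 and 24.2 CPM in male Cav1-KO mice, below all 6 Control mice (72.2 to 355 CPM), with a log2 fold change of -2.24 (SE 0.37, adjusted p = 0.000195, edgeR). Scgb1a1 and Foxj1, markers of club and ciliated cells of the airways, moved with it at -1.25 (SE 0.30) and -1.10 (SE 0.20). They belong to a list of 11 genes of lung epithelium and endothelium. Its summed level was also lower, at 35115 to 38922 CPM in Cav1-KO and 42678 to 89829 CPM in Control normoxia. Of 14 T cell genes 5 fell, beside 4.13% of all genes called lower. The part of the cell composition and of the lung region sampled in the immunoglobulin values was not tested.

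Among mice labelled Cav1-RC in normoxia, Igkc was at 662 and 123 CPM in females and 187, 168 and 499 CPM in males. Igha was at 972 and 55.0 CPM in females and 55.2, 55.0 and 559 CPM in males. All 5 were above all 5 Cav1-KO mice for both genes, and the log2 fold change against Cav1-KO was 3.91 (SE 1.16, adjusted p = 0.0419, edgeR) for Igha, which was called. Of 160 members 6 were called higher and 0 lower, beside 2.18% of genes called higher, and the median over the members was 2.07. The V segments named were Ighv1-59, Ighv1-55 and Ighv1-26. Ighv1-59 had no count in any Cav1-KO normoxia library. It reached 10 counts in exactly 3 libraries, all labelled Cav1-RC, with a largest count of 33, so it is a member only through libraries where it was high and its call is not support for a difference. The call of Igha was lost with replicate number as a block, with the blot list as a term (adjusted p = 0.083, edgeR) and off the list (2.32, adjusted p = 0.067). It was also lost without female Cav1-RC replicate 1 (2.31), male Cav1-RC replicate 3, either female Cav1-KO mouse, or male Cav1-KO replicate 1 or 3. Over its 18 alternatives the adjusted p ran from 0.000517 to 0.429, and Ighv1-59, Ighv1-55 and Ighv1-26 each lost their call without either female Cav1-KO mouse. The count fell to 0 without female Cav1-KO replicate 1 or 2, to 2 without female Cav1-RC replicate 1, male Cav1-KO replicate 3 or male Cav1-RC replicate 3, and to 3 without male Cav1-KO replicate 1 or 2.

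Among males alone 23 of 38 members were called higher in Cav1-RC than in Cav1-KO normoxia and 0 lower, beside 2.27% of genes called higher. They included Ighm, at 282, 242 and 189 CPM against 98.8, 81.8 and 80.3 CPM, without overlap (log2 fold change 1.45, SE 0.13, adjusted p = 7.44e-05, edgeR). Igkc rose by 2.34 (SE 0.39), Igha by 3.76 (SE 0.90), Jchain by 2.47 (SE 0.50) and Ighd, the constant gene of naive B cells, by 1.05 (SE 0.15). Without male Cav1-RC replicate 3 Igha was at 1.74 and Jchain at 1.53, still called, and both lost their call without Cav1-KO replicate 1 or 3. Ighd fell under the fold limit without Cav1-RC replicate 1 (0.97) or Cav1-KO replicate 3 (0.87). Male Cav1-RC replicates 1 and 2 are libraries whose Xist and Ddx3y levels go against the labelled sex. Among the fits of the 2 male groups alone, the count was 14 without Cav1-KO replicate 3 and 43 without Cav1-RC replicate 2. In 1 fit over all 34 libraries the male count was 0, and in the same form of fit without the 4 sex-discordant libraries it was 3. Ighm, Igkc, Igha, Jchain and Ighd were not called in either of those fits, and the adjusted p of Ighm over its 15 alternatives reached 1. In females 0 of 41 members were called by edgeR, beside 0.1% of all genes, with 18 at an unadjusted p under 0.05 and 3 called by DESeq2. Leaving out 1 female gave 5 and 10 without Cav1-KO replicates 1 and 2, and 1 and 25 without Cav1-RC replicates 1 and 2. Pigr was also higher in Cav1-RC than in Cav1-KO normoxia, by 1.83 on the log2 scale (SE 0.37, adjusted p = 0.00256, edgeR), as were Scgb1a1 (1.03) and Foxj1 (1.11). The summed lung epithelium and endothelium list was higher too, at 43347 to 96814 CPM against 35115 to 38922 CPM. In the same comparison 4 of 20 B cell genes rose and 0 fell, Blk, Cxcr5 and Fcrla among them, and the summed list was at 275 to 373 CPM in Cav1-RC against 177 to 227.6 CPM in Cav1-KO mice, without overlap. Of 14 T cell genes 0 were called by edgeR. The part of these cells in the immunoglobulin values was not tested.

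Against Control, Cav1-RC normoxia gave 2 members higher and 3 lower of 160, beside 2.72% of genes called in either direction, and the median over the members was -0.93. Igkc and Igha were not called, and their values in Cav1-RC mice overlapped those of Control mice. Male Cav1-RC mice gave 2 members higher and 8 lower of 84, beside 2.45% of genes in either direction, with Ighv1-26 at 3.95 and Igkv6-15 at -3.36 among those named, both of which lost their call in 1 fit over all 34 libraries (adjusted p = 0.240 and 0.143, edgeR). The male count was 28 and 19 without Control replicates 1 and 3, and 2, 4 and 5 without Cav1-RC replicates 1, 2 and 3. The count over both sexes fell to 1 without either female Cav1-RC mouse and to 3 without male Control replicate 1, female Control replicate 2, or male Cav1-RC replicate 1 or 3. In females 0 of 65 members were called by edgeR, beside 0.137% of all genes, with 12 at an unadjusted p under 0.05, 5 called by DESeq2, and 1 called by edgeR without Cav1-RC replicate 2.

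In hypoxia, Ighm was far higher in mice labelled Cav1-RC than in either other genotype. It was at 878, 7268 and 500 CPM in female and 505, 472 and 399 CPM in male Cav1-RC mice. Control mice in hypoxia had 70.6, 86.3 and 168 CPM in females and 225, 117 and 66.4 CPM in males. All 6 Cav1-RC mice were above all 6 Control mice, with a log2 fold change of 3.23 (SE 0.52, adjusted p = 0.000216, edgeR). Female Cav1-RC replicate 2 was far above the others, and without it the log2 fold change was 2.19 and still called. Over all 19 alternatives, the fits that each leave out 1 library included, the call was kept, at 2.19 to 3.51 with adjusted p between 6.73e-09 and 0.00643.

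Cav1-KO mice in hypoxia had Ighm at 123, 266 and 151 CPM in females and 33.6, 120 and 292 CPM in males. All 6 Cav1-RC mice were above these as well, with a log2 fold change of 2.81 (SE 0.52, adjusted p = 0.000145, edgeR), and of 1.77, still called, without female Cav1-RC replicate 2. Ighg2c (4.18, SE 1.20), Ighg2b (2.91, SE 1.04), Igkc (1.96, SE 0.72), Iglc2 (1.73, SE 0.58) and Ighd (1.05, SE 0.29) were called higher too. Of these Ighg2c, which encodes an IgG class of the C57BL/6 type, was at 33.9, 27.9 and 46.2 CPM in female and 67.4, 228.3 and 59.4 CPM in male Cav1-RC mice, and at 1.26, 1.46 and 26.5 CPM in female and 0.269, 1.59 and 2.14 CPM in male Cav1-KO mice. Every Cav1-RC mouse exceeded every Cav1-KO mouse. Reads were aligned to mm10, and whether the mice differed in their alleles of Ighg2c or of the V segments was not tested.

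Of 160 members 120 were called higher and 0 lower in Cav1-RC than in Cav1-KO hypoxia, beside 8.79% of genes called higher, and the median over the members was 3.77. V members with at least 10 counts numbered 74 to 118 in the Cav1-RC and 2 to 63 in the Cav1-KO hypoxia libraries. Members that met the rule only through Cav1-RC libraries are high there by choice, and their part in this count and median was not tested. Igkv4-70 was at 2.21, 2.19 and 3.31 CPM in female and 0.309, 4.09 and 1.76 CPM in male Cav1-RC mice, and at no more than 0.0899 CPM in Cav1-KO mice, which is at or under the floor. Igkv8-24 rose by 3.76 on the log2 scale (SE 0.68, adjusted p = 0.000123, edgeR), without overlap. All 6 Cav1-KO hypoxia libraries are on the blot list and no Cav1-RC hypoxia library is, so the list and the genotype cannot be told apart here. With the list as a term, estimated from the other groups, 4 members were called, and Ighm had 2.40 (adjusted p = 0.057), Igkc 1.64 (adjusted p = 0.46), Ighg2c 2.09 (adjusted p = 0.58), Ighg2b 1.28 (adjusted p = 0.76), Iglc2 2.63 (adjusted p = 0.086), Igkv4-70 1.09 (adjusted p = 0.865) and Igkv8-24 2.91 (adjusted p = 0.133). Over the 19 alternatives the adjusted p of Ighm ran from 4.98e-08 to 0.0567, and that of Igkc from 0.0022 to 0.463, with its call also lost at 1.23 without female Cav1-RC replicate 2 and without female Cav1-KO replicate 1 or 2 or male Cav1-KO replicate 1 or 3. Those 4 Cav1-KO libraries and male Cav1-RC replicate 2 each ended the call of Ighg2b (4.57 and still called without female Cav1-KO replicate 3), female Cav1-KO replicate 1 or 2 that of Ighd, which was also lost at 0.95 without the 4 sex-discordant libraries, and female Cav1-RC replicate 2 that of Iglc2 (0.91).

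By sex, 42 of 94 members were called higher in female Cav1-RC than in female Cav1-KO hypoxia and 58 of 77 in males, beside 5.58% and 8.16% of genes called higher. Ighm was called in females at 4.01 (SE 0.97), with Ighd at 1.42 (SE 0.41). Without female Cav1-RC replicate 2, the mouse at 7268 CPM, Ighm was at 1.96 and still called. Its call was lost without any 1 of the 3 female Cav1-KO mice, and that of Ighd without any 1 female other than Cav1-KO replicate 3. Ighg2c (6.52, SE 0.74), Ighg2b (5.16, SE 0.70), Ighg3 (2.14, SE 0.34), Igkc (2.10, SE 0.74) and Iglc2 (1.34, SE 0.47) were called in males. Igkc kept its call in 7 of 14 alternatives, at 1.61 to 3.67 (adjusted p up to 0.543), and Iglc2 in 5 of 14, at 0.99 to 2.23 (adjusted p up to 0.273). Igkc lost it without any 1 Cav1-RC male or Cav1-KO replicate 3, and Iglc2 without Cav1-RC replicate 1 or 3 or Cav1-KO replicate 1 or 3. In 1 fit over all 34 libraries 54 members were called in females and 74 in males, against 3 and 1 with the blot list as a term and 13 and 73 without the sex-discordant libraries. With the list as a term Ighg2c (4.42), Ighg2b (3.52) and Ighg3 (0.56) lost their calls in males. Of 14 alternatives Ighg2c and Ighg2b kept their calls in 13 each and Ighg3 in 11. The female count was 24 and 20 without Cav1-KO replicates 1 and 2, and the male count 104 without Cav1-KO replicate 2.

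Against Control in hypoxia, 22 of 160 members were called higher in Cav1-RC and 0 lower, beside 3.45% of genes called higher, and the median was 1.74. Ighm was the constant gene called. Igkv3-5 was at 1.40, 14.7 and 8.24 CPM in female and 3.96, 2.49 and 1.56 CPM in male Cav1-RC mice, above every Control mouse in hypoxia (0.0766 to 0.620 CPM), a log2 fold change of 4.0 (SE 0.66, adjusted p = 0.000244, edgeR). Igkv14-126 was at 1.32, 283 and 1.48 CPM in female and 1.42, 4.28 and 1.69 CPM in male Cav1-RC mice, against 0 to 0.367 CPM in Control, so that female Cav1-RC replicate 2 sets the size of its fold change. The count was 11 without female Control replicate 1 or male Control replicate 2, 14 without male Control replicate 3 and 12 without male Cav1-RC replicate 2. Of the 6 Control libraries 4 are on the blot list and of the 6 Cav1-RC libraries 0 are. The count was 3 with the list as a term and 10 without the 4 sex-discordant libraries. Igkv3-5 lost its call with the list as a term, at 2.54 (adjusted p = 0.163, edgeR), while Ighm kept its call there, at 2.97 (adjusted p = 0.0064), and without the 4 sex-discordant libraries, at 3.21.

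By sex, 10 of 103 members were called higher in male Cav1-RC than in male Control hypoxia, beside 5.69% of genes, with Ighm at 1.75 (SE 0.36, adjusted p = 0.00733, edgeR). The 3 male Control hypoxia libraries are on the list and the 3 male Cav1-RC hypoxia libraries are not. In 1 fit over all 34 libraries the male count was 9, against 0 with the list as a term and 2 without the sex-discordant libraries, and male Ighm was not called in these fits (adjusted p = 0.0765, 0.572 and 0.188, edgeR). The male count was 24 and 27 without Control replicates 1 and 2, and 6 without Cav1-RC replicate 2 or 3. In females 1 of 105 members was called, beside 0.572% of genes: Ighd was at 36.2, 33.7 and 38.5 CPM in Cav1-RC and 10.8, 9.18 and 15.3 CPM in Control mice, a log2 fold change of 1.64 (SE 0.22, adjusted p = 0.0254, edgeR). Ighd lost this call without any 1 Cav1-RC mouse or Control replicate 2 (adjusted p up to 0.158). The female count was 3 without Control replicate 1 and 0 without Cav1-RC replicate 2.

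Between Cav1-KO and Control in hypoxia the median over the members was -2.18, with 36 of 160 called lower and 0 higher, beside 2.72% of genes called lower. Igkc was at 381, 906 and 863 CPM in female and 3705, 116 and 2317 CPM in male Control mice. It was at 113, 222.9 and 1383 CPM in female and 61.9, 802 and 171 CPM in male Cav1-KO mice, so the groups overlapped and Igkc was not called. Ighg2c was the constant gene called, at -4.62 (SE 1.23, adjusted p = 0.00924, edgeR), with Control values from 0.0766 CPM in male replicate 2 to 1427 CPM in male replicate 1, and the groups overlapped. Its call was lost with the blot list as a term (-3.74, adjusted p = 0.0506) and among the libraries on the list (-3.45, adjusted p = 0.268), and over its 20 alternatives the adjusted p ran from 0.000118 to 0.268. The count was 15 without male Control replicate 1, female Control replicate 2 or male Cav1-KO replicate 1, 17 without female Control replicate 3, 23 and 20 without female Cav1-KO replicates 1 and 2, and 22 without male Cav1-KO replicate 3. It was 3 with the blot list as a term and 0 among the libraries on the list. In females 0 of 65 and in males 0 of 48 members were called by edgeR, beside 0.768% and 0.929% of all genes in either direction, with 11 and 19 at an unadjusted p under 0.05 and 15 and 15 called by DESeq2. Without Control replicate 1 the female count was 27, and without Control replicate 2, a sex-discordant library, the male count was 44.

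Within Control mice 2 of 160 members were called higher and 1 lower in hypoxia than in normoxia, beside 2.33% of genes in either direction, a share near that background. The median log2 fold change was 0.06 as the mean of both sexes. It was 0.84 over the 63 members tested in females, with 45 of them positive, and -1.08 over the 90 tested in males, with 71 negative. Igkc and Igha overlapped between oxygen levels in Control, with medians of 527 and 884 CPM for Igkc in normoxia and hypoxia. The count was 1 without male Control hypoxia replicate 1 or female Control hypoxia replicate 3. In males 4 of 90 members were called lower and 0 higher, beside 3.93% of genes called lower, with Igkv3-5 at 5.93, 2.24 and 2.20 CPM in normoxia and 0.362, 0.0766 and 0.155 CPM in hypoxia. That call was lost with the list as a term (-1.58, adjusted p = 0.664, edgeR) and without hypoxia replicate 3. All male Control hypoxia libraries are on the list and no male Control normoxia library is, and the male count was 15 and 1 without hypoxia replicates 2 and 3. In females 0 of 63 members were called by edgeR, beside 0.0175% of all genes, with 9 at an unadjusted p under 0.05 and 3 called by DESeq2.

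In Cav1-KO mice Igha, Jchain, Igkc, Iglc1 and Iglc3 were called higher in hypoxia than in normoxia. Igha went from 7.83 to 31.2 CPM in the 5 normoxia mice to 55.6, 136 and 2381 CPM in female and 103, 1202 and 51.5 CPM in male hypoxia mice, without overlap (log2 fold change 4.80, SE 1.20, adjusted p = 0.00216, edgeR). Jchain rose by 3.71 (SE 0.95), Iglc1 by 3.04 (SE 1.12), Igkc by 2.87 (SE 0.83) and Iglc3 by 1.37 (SE 0.52), while Ighm, at 33.6 to 292 CPM in hypoxia and 80.3 to 138 CPM in normoxia, was not called. Over the members 7 of 160 were called higher and 0 lower, beside 8.55% of genes called higher, a share below that background. With replicate number as a block Iglc1 was at 2.74 and lost its call. It was at 0.85 without female hypoxia replicate 3, where it had 395 CPM, and lost its call there, without male hypoxia replicate 2 and without either female normoxia mouse. Iglc3 lost its call without the same libraries and without male normoxia replicate 3. All 6 hypoxia libraries are on the blot list and no normoxia library is, so the list and the oxygen level cannot be told apart. With the list as a term 0 members were called by edgeR, and Igha had an adjusted p of 0.246, the highest over its 18 alternatives (lowest 3.61e-07), while Jchain, Igkc, Iglc1 and Iglc3 had 0.239, 0.280, 0.201 and 0.929. The count was 2 without male hypoxia replicate 2 or either female normoxia mouse, 3 without female hypoxia replicate 3 and 4 without male normoxia replicate 3.

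Pigr moved the same way in this comparison, by 1.98 (SE 0.37, adjusted p = 0.000164, edgeR), as did Scgb1a1 (1.68, SE 0.30) and Foxj1 (1.23, SE 0.20). So did the summed lung epithelium and endothelium list, at 60893 to 77392 CPM in hypoxia and 35115 to 38922 CPM in normoxia. Of 18 plasma cell genes 5 rose, namely Jchain, Creld2, Mzb1, Derl3 and Eaf2, and Slamf7 and Irf4 fell. Of 20 B cell genes 3 fell and 0 rose. By sex, 4 of 51 members were called higher in females and 4 of 20 in males, beside 6.29% and 8.75% of genes called higher. The female count was 16 without hypoxia replicate 1 and 0 without either normoxia mouse, and the male count 10 and 7 without hypoxia replicates 1 and 2 and 2 without normoxia replicate 1 or 3.

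In mice labelled Cav1-RC, Ighm was higher in hypoxia than in normoxia, where it was at 63.4 and 198 CPM in females and 282, 242 and 189 CPM in males. The groups did not overlap, and the log2 fold change was 2.70 (SE 0.57, adjusted p = 0.00776, edgeR), and 1.66, still called, without female hypoxia replicate 2. Over the members 16 of 160 were called higher and 0 lower, beside 0.8% of genes called higher, with a median of 2.30. Igkv3-5 (4.15, SE 0.78), Igkv8-24 (3.01, SE 0.72) and Igkv6-13 (6.05, SE 1.47) were the V segments named, the last at no more than 0.217 CPM in normoxia. Igkv8-24 and Igkv6-13 lost their calls without either female normoxia mouse, the first also without male hypoxia replicate 1 or male normoxia replicate 2 and the second also without hypoxia replicate 2 of either sex or male normoxia replicate 1. The count was 1 and 2 without female normoxia replicates 1 and 2, 4 and 6 without male normoxia replicates 1 and 2, 4 without male hypoxia replicate 2, 5 without female hypoxia replicate 2 and 0 without the 4 sex-discordant libraries, which leaves 1 male normoxia mouse. Ighm had an adjusted p of 0.15 without those 4 libraries and 0.078 without female normoxia replicate 1, and it kept its call with the list as a term, at 2.64, and off the list, at 2.41 (adjusted p = 0.028).

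In male Cav1-RC mice 30 of 106 members were called higher in hypoxia and 0 lower, beside 1.42% of genes called higher. Igkc was at 187, 168 and 499 CPM in normoxia and 1680, 1515 and 1280 CPM in hypoxia, a log2 fold change of 2.40 (SE 0.38, adjusted p = 0.0102, edgeR). Jchain rose by 2.64 (SE 0.47), Ighg1 by 2.35 (SE 0.55) and Ighg3 by 1.91 (SE 0.43). Of the 3 male normoxia mice, replicates 1 and 2 are sex-discordant. In 1 fit over all 34 libraries 0 male members were called by edgeR, also 0 with the list as a term and without the sex-discordant libraries, and 4 off the list, while DESeq2 called 41 in the fit of the 2 groups. Of their 15 alternatives Igkc kept its call in 11, Jchain in 10, Ighg3 in 7 and Ighg1 in 6, with adjusted p up to 1 for each. Leaving out 1 library ended the call of Jchain without normoxia replicate 1, of Ighg3 without either of those normoxia mice or hypoxia replicate 1 or 3, and of Ighg1 without any male other than hypoxia replicate 3. In females 1 of 120 was called, beside 0.0228% of genes called higher: Igkv3-2 was at 0.537 and 0.532 CPM in normoxia and 9.19, 15.0 and 11.2 CPM in hypoxia. That call was lost without hypoxia replicate 1 or 3 or either normoxia mouse, and the male count was 11 and 13 without normoxia replicates 1 and 2.

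The fold changes of the 9 comparisons were compared between the sexes, and 2 of 160 members were called, both for hypoxia against normoxia in Control, each with a positive female minus male difference, beside 0.106% of all genes called in that direction. In the other 8 comparisons 0 members were called by edgeR, beside 0.186% of genes for Cav1-KO and 0.136% for Cav1-RC against Control in hypoxia and 0% in the rest, with 2 to 30 members at an unadjusted p under 0.05 and 0 to 2 called by DESeq2. Igkv10-94 was at 0, 0.0676 and 0.701 CPM in female normoxia and 7.17, 53.2 and 2.62 CPM in female hypoxia. In males it was at 11.9, 0.601 and 3.82 CPM in normoxia and 1.25, 0 and 2.07 CPM in hypoxia. The difference, female minus male, was 8.61 on the log2 scale (SE 1.82, adjusted p = 0.0429, edgeR). Ighv1-67 gave 7.43 (SE 1.60, adjusted p = 0.0461, edgeR), on levels of at most 5.003 CPM. Every Control library changed this count by over 1.5 times when left out: it was 0 without female normoxia replicate 1, female hypoxia replicate 2 or 3, any male normoxia mouse or male hypoxia replicate 3, 1 without female normoxia replicate 2 or male hypoxia replicate 1, 6 without male hypoxia replicate 2, and 22 and 28 without female normoxia replicate 3 and female hypoxia replicate 1.

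The class composition followed these levels. IgA made up 32.9% to 76.4% (median 70.5%) of the heavy chain FPKM in Control normoxia and 4.2% to 17.2% (median 11.1%) in Cav1-KO normoxia, so the ranges did not overlap. IgM made up 4.43% to 51.4% (median 18.0%) and 55.2% to 75.9% (median 72.9%) in the same mice. Thus in Cav1-KO normoxia the heavy chain RNA that remained was mostly Ighm and Ighd, and IgD alone took 9.25% to 18.8%. Cav1-RC normoxia mice spanned the range, with IgA from 9.94% to 79.6%. In hypoxia the median share of IgA came to 70.2% (Control), 41.8% (Cav1-KO) and 48.3% (Cav1-RC), with ranges that overlapped. The IgM share in Cav1-RC hypoxia ran from 20.6% to 85.7%, the highest in female replicate 2. IgG ran from 0.989% to 49.7% over all libraries. Lambda took a larger share of light chain FPKM in Cav1-KO normoxia, at 12.8% to 19.1%, than in Control normoxia, at 2.49% to 11.5%, and these are ratios within a library with no test.

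**Figure D3:**
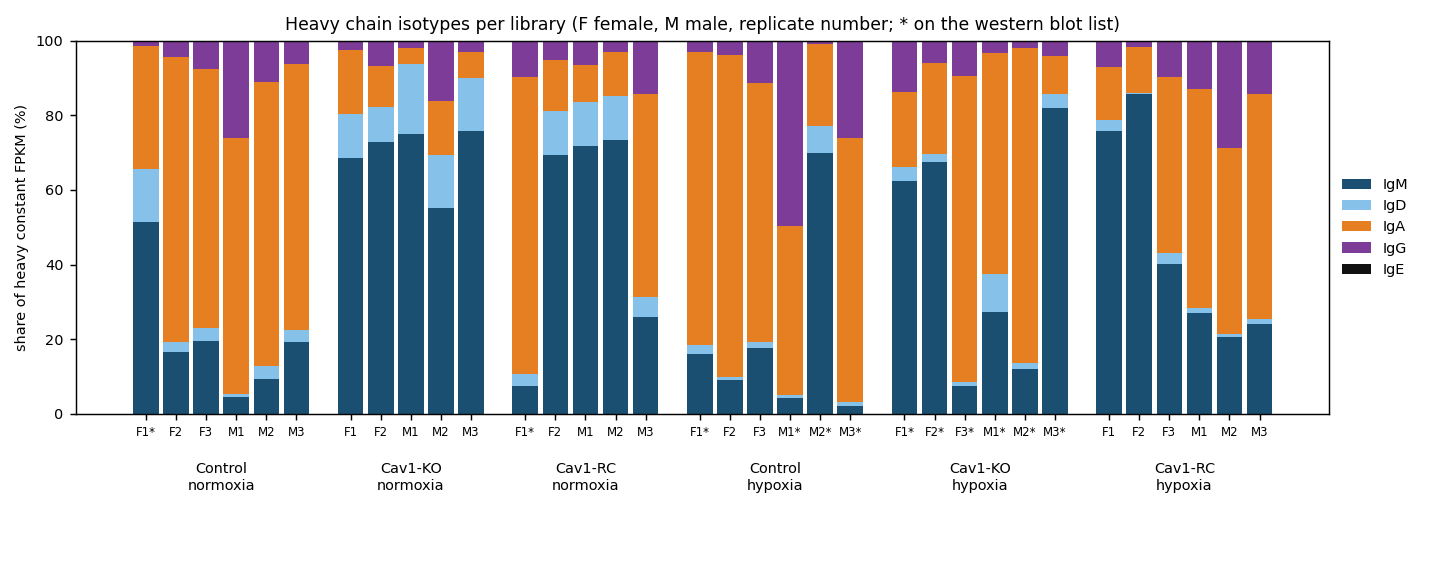
Share of the summed heavy chain constant FPKM (percent) taken by IgM, IgD, IgA, IgG and IgE (stacked bars) in each of the 34 libraries, grouped by genotype and oxygen level. IgA exceeds 30% in all 6 Control normoxia libraries and stays under 20% in all 5 Cav1-KO normoxia libraries.

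The V segments were used unevenly. Kappa V segments took 70.0% of the V counts on average, heavy chain V segments 16.2% and the 3 lambda segments 13.8%. Iglv1 led in 15 libraries, including all 5 of Cav1-KO normoxia, and 16 different segments led in at least 1 library. Single mice of each genotype carried single segments at high shares: Igkv1-135 made up 23.0% of the 174 V counts in male Control hypoxia replicate 2, Igkv4-91 20.8% of 16957 in male Control hypoxia replicate 1, Iglv1 37.6% in female Cav1-KO hypoxia replicate 3, Igkv3-2 25.8% in male Cav1-KO hypoxia replicate 3 and Igkv14-126 15.5% in female Cav1-RC hypoxia replicate 2, the library with 7268 CPM of Ighm. The effective number of V segments (the inverse of the summed squared shares) ran from 15.6 to 24.9 in Control normoxia, 21.0 to 27.2 in Cav1-KO normoxia and had a lowest value of 20.6 and a median of 42.3 in Cav1-RC normoxia. In hypoxia it ran from 11.1 to 26.0 in Control, 6.28 to 27.3 in Cav1-KO and 19.4 to 59.6 in Cav1-RC mice. Libraries held 169 to 43587 V counts, the number was not thinned to a common count, and it was given no test.

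**Figure D4:**
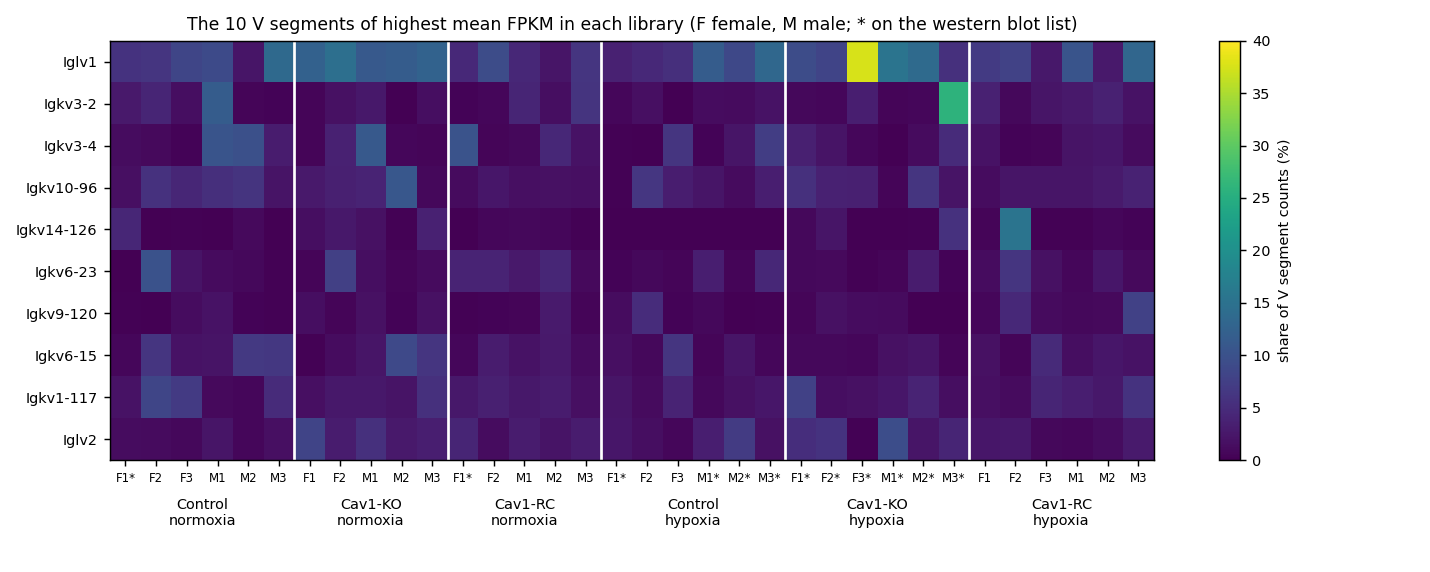
Share of V counts (percent, as color) of the 10 V segments of highest mean FPKM (rows) in each of the 34 libraries (columns, a star marking the blot list). Most libraries spread their counts over many segments, while Iglv1 reaches 37.6% in female Cav1-KO hypoxia replicate 3.

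V and constant counts did not keep 1 ratio across the libraries. Kappa V counts per 100 Igkc counts were 6.33 to 18.2 (median 12.4) in the 12 libraries on the blot list and 22.0 to 44.7 (median 31.4) in the 22 others, with no overlap. The same held within groups that hold both kinds of library. Heavy chain V counts per 100 heavy constant counts were 0.334 to 3.80 (median 0.999) on the list and 1.52 to 9.19 (median 4.56) off it. Comparisons that set listed against unlisted libraries therefore compare V levels across this gap. Fits with the list as a term, or within the libraries on or off it, stand with the alternatives. With the term, called members went from 120 to 4 for Cav1-RC against Cav1-KO in hypoxia, where list and genotype cannot be told apart. Beyond those fits the part of the gap in the V calls was not tested. Igkc and the other constant genes are counted on rows of their own, and Igkc and Ighg2c also lost their calls there with the term (adjusted p = 0.46 and 0.58, edgeR).

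**Figure D5:**
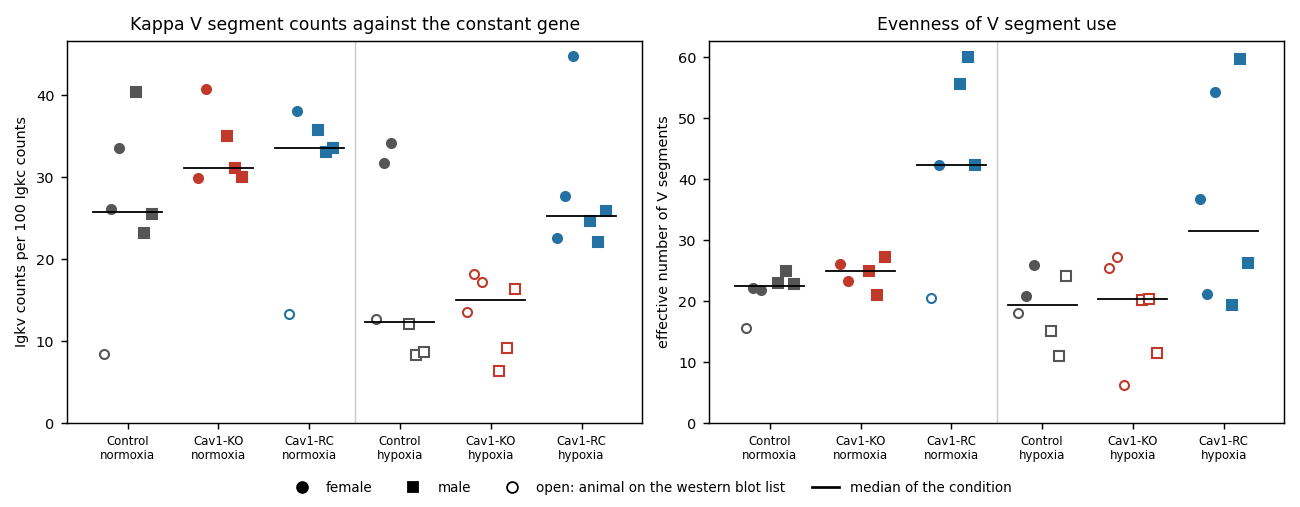
Kappa V counts per 100 Igkc counts (left) and effective number of V segments (right) in each of the 34 libraries by genotype and oxygen level, with open marks for mice on the blot list. On the left the 12 listed libraries lie at 18.2 or lower and the other 22 at 22.0 or higher.

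Across the 34 libraries Igkc and Igha followed Jchain closely on the scale of log2(CPM + 0.5). For Igkc, Pearson's r was 0.987 and Spearman's rho 0.982, with r at 0.990 on the list, 0.993 off it and 0.985 without the 2 most distant libraries. For Igha, r was 0.974 and rho 0.980, with r at 0.971 on the list, 0.976 off it and 0.969 without the 2 most distant libraries. The permutation p of each was 1e-05, the smallest that 100000 resamples can give (adjusted 1.33e-05 over the 4 relations computed). Ighm followed Cd79a, a B cell receptor subunit, less closely, with r = 0.451 and rho = 0.465 (permutation p = 0.00614 and 0.00613, both unchanged by adjustment). Its r was 0.184 on the list, 0.587 off it and 0.389 without the 2 most distant libraries, so the relation did not hold on the list.

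The other gene lists give the setting of the hypoxia comparisons. Of the 20 B cell genes, 11 rose and 0 fell in Cav1-RC against Cav1-KO hypoxia, among them Cd79a, Ms4a1 and Cxcr5, with a median of 1.17 on the log2 scale, and the summed list was 255 to 431 CPM in Cav1-RC and 144 to 294 CPM in Cav1-KO mice. Against Control 3 rose, namely Ms4a1, Cd72 and Bank1. Of the 18 plasma cell genes Pou2af1 (1.69) and Irf4 (1.61), a transcription factor of plasma cells, rose against Cav1-KO and 0 rose against Control. Of 14 genes for signals that attract or sustain B and plasma cells, 13 were tested, and in each comparison 1 rose and 0 fell in Cav1-RC hypoxia: Cxcl13, the chemokine that draws B cells into follicles, by 1.04 (SE 0.32) against Cav1-KO and by 1.22 (SE 0.32) against Control. Their summed level overlapped between the genotypes, at 732 to 1675 CPM in Cav1-RC, 543 to 964 CPM in Cav1-KO and 701 to 1412 CPM in Control hypoxia. In the same comparisons 9 of 10 neutrophil genes rose each time, and 7 of 14 T cell genes rose against Cav1-KO. Over all genes 8.79% were called higher against Cav1-KO and 3.45% against Control. In Cav1-KO against Control hypoxia 7 of 8 erythroid genes rose, where 1066 of all 19870 genes tested were called in either direction. The B cell precursor list had 1 gene tested of 6, Vpreb1, and the list was not summarised further. Both comparisons of Cav1-RC hypoxia share those 6 libraries, and the part of blood cells left in the lung was not tested.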

How the data were processed

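RNA from 35 whole lungs was sequenced as poly-A selected, directional libraries (paired reads of 150 bases). The authors aligned reads to mm10 with HISAT2 2.0.5 and counted them per gene with featureCounts 1.5.0-p3, giving the deposited counts and the deposited FPKM (fragments per length of the gene and per mapped library size). FPKM was used only to compare levels between genes. From the deposited counts, CPM was computed here after TMM scaling, and edgeR 4.0.16 (R 4.3.3) quasi-likelihood tests were run on genes kept by filterByExpr, with Benjamini-Hochberg adjustment over all genes tested. There were 18 comparisons of 2 groups of 1 sex, and 9 comparisons as the mean of both sexes or as the difference between the sexes, fitted over 34 libraries. A gene was called at an adjusted p under 0.05 and a log2 fold change beyond 1 in size. DESeq2 1.42.0 was an alternative. The labels give each library as a separate mouse, and 1 library has no group. Total counts ran from 12425535 to 33343006, and intervals and floors cover counting error only. Named genes were the constant genes and Jchain, the 10 V segments of highest mean FPKM, in each comparison up to 3 called members per direction with the smallest adjusted p and no overlap between the groups, and called members of the gene lists. Members and gene lists were chosen with earlier results of these data known. Gene positions and sequences come from GRCm38 with the GENCODE vM21 annotation, which held all 161 members at the same coordinates. Scripts were tested on simulated data. Alternatives included another scaling, no filter, leaving out each library, a replicate block, and a blot list term or split. The fits within the libraries on or off the list were chosen after seeing the data.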

Additional observations from a re-analysis of the deposited data

Results flagged for a closer look

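The change from normoxia to hypoxia in Control mice differed between the sexes for 2 members. The female minus male difference was 8.61 for Igkv10-94 and 7.43 for Ighv1-67 on the log2 scale (adjusted p = 0.0429 and 0.0461, edgeR). The 3 male Control hypoxia libraries are all on the blot list and 1 of them is sex-discordant. With the list as a term 0 members were called for this difference by edgeR, and 2 without the sex-discordant libraries.

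Rows of joining (J) segments, of biotype IG_J_gene, were used in no comparison. Their summed level, over 14 rows, had a median of 6.68 CPM in male Cav1-RC hypoxia mice and 7.72 CPM in female Cav1-RC hypoxia mice. The lowest of these libraries, at 6.00 and 2.57 CPM, were above the highest Control hypoxia library of the same sex, at 5.68 and 1.71 CPM. All male Control hypoxia libraries and female Control hypoxia replicate 1 are on the blot list, and no Cav1-RC hypoxia library is. The part of the list in these levels was not tested.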

How the results depend on the processing

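DESeq2 size factors and TMM without the immunoglobulin rows kept the count of called members within 1.5 times in all 27 comparisons each. In the lists of counts below, the order is Cav1-KO against Control, Cav1-RC against Cav1-KO and Cav1-RC against Control in normoxia, the same 3 in hypoxia, then hypoxia against normoxia in Control, Cav1-KO and Cav1-RC. As the mean of both sexes the counts were 39, 6, 5, 36, 120, 22, 3, 7 and 16. They were 68, 29, 30, 61, 132, 51, 7, 14 and 52 without the low-count filter, 69, 18, 14, 48, 113, 17, 3, 15 and 29 by DESeq2, 50, 9, 8, 3, 4, 3, 8, 0 and 12 with the blot list as a term, and 36, 8, 2, 19, 110, 10, 3, 8 and 0 without the 4 sex-discordant libraries. Among libraries off the list, the 3 comparisons in normoxia gave 53, 5 and 8 and hypoxia against normoxia in Cav1-RC gave 16, and on the list Cav1-KO against Control in hypoxia gave 0. Leaving out 1 library gave 2 to 45, 0 to 7, 1 to 5, 15 to 50, 102 to 129, 11 to 27, 1 to 4, 2 to 7 and 1 to 18.

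By sex, the counts with the list as a term, without the sex-discordant libraries and off or on the list come from 1 fit over all libraries kept, and are to be read against the 1 fit over all 34 libraries, not against the fits of 2 groups. In females the fits of 2 groups gave counts of 0, 0, 0, 0, 42, 1, 0, 4 and 1. They were 23, 26, 4, 7, 114, 18, 2, 39 and 86 without the filter, 4, 3, 5, 15, 69, 25, 3, 7 and 31 by DESeq2, 0, 0, 0, 12, 54, 15, 1, 1 and 3 in 1 fit over all 34 libraries, 0, 0, 0, 1, 3, 14, 1, 0 and 1 with the list as a term, and 0, 0, 0, 2, 13, 15, 1, 1 and 2 without the sex-discordant libraries. Off the list, Cav1-KO against Control in normoxia gave 3, Cav1-RC against Control in hypoxia 14, and hypoxia against normoxia 2 in Control and 0 in Cav1-RC. Leaving out 1 library gave 0 to 17, 1 to 25, 0 to 1, 0 to 27, 20 to 59, 0 to 3, 0 to 0, 0 to 16 and 0 to 1.

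In males the fits of 2 groups gave counts of 37, 23, 10, 0, 58, 10, 4, 4 and 30. They were 106, 96, 63, 76, 142, 44, 43, 23 and 86 without the filter, 63, 54, 31, 15, 87, 19, 9, 6 and 41 by DESeq2, 41, 0, 3, 11, 74, 9, 14, 1 and 0 in 1 fit over all libraries, 61, 0, 12, 19, 1, 0, 1, 0 and 0 with the list as a term, and 39, 3, 1, 16, 73, 2, 6, 3 and 0 without the sex-discordant libraries. Off the list the 3 comparisons in normoxia gave 75, 4 and 23 and hypoxia against normoxia in Cav1-RC gave 4, and on the list Cav1-KO against Control in hypoxia gave 1. Leaving out 1 library gave 8 to 60, 14 to 43, 2 to 28, 0 to 44, 55 to 104, 6 to 27, 1 to 15, 2 to 10 and 11 to 38.

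The differences between the sexes counted 2 members in Control for hypoxia against normoxia, 12 by DESeq2 and 0 with the list as a term, with 0 to 28 when 1 library was left out. In the other 8 comparisons DESeq2 gave 0 to 2, and removal of the sex-discordant libraries gave 1 for Cav1-KO and 2 for Cav1-RC against Control in hypoxia. Leaving out 1 library gave 0 to 3 for Cav1-KO and 0 to 10 for Cav1-RC against Control in hypoxia.

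The libraries share replicate numbers between groups, and correlations of same-numbered deviations ran from -0.429 to 0.567 with a mean of 0.0155, so the numbers did not pair the mice, and 15 of 34 libraries lay closest to their own number. With the replicate block the counts were 36, 5, 4, 34, 123, 15, 1, 5 and 14 as the mean of both sexes, 8, 8, 3, 0, 51, 12, 0, 13 and 65 in females, and 46, 22, 19, 0, 56, 10, 10, 6 and 33 in males. The block ended the calls of 3 of 100 results for single genes: Igha for Cav1-RC against Cav1-KO in normoxia (3.85, adjusted p = 0.0573, edgeR), Iglc1 for hypoxia against normoxia in Cav1-KO (2.74, adjusted p = 0.0517, edgeR), and male Iglc2 for Cav1-RC against Cav1-KO in hypoxia. DESeq2 gave no adjusted p for 3 of these. Of the 100 results, 2 changed direction: with the list as a term Iglc3 was at -0.0390 in males for hypoxia against normoxia in Cav1-KO, and Igkv6-15 at 0.0811 in males for hypoxia against normoxia in Control. The 72 alternatives for the levels of Igkc, Igha and Ighm stayed within 1 SD of their values. Where a fit leaves 1 mouse in a group, that mouse is assumed to vary like the others. At 3 counts as the floor, V segments under 0.241 CPM could not be told from 0 in the shallowest library.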

Other observations

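The library without a group is labelled as of uncertain identity, with female sex, Cav1-KO and normoxia each given as uncertain, and entered no comparison. It had a depth of 30930450 counts. In CPM of its unscaled total, which is not the scaled CPM used for the other libraries, Igkc was at 99.6, Ighm at 93.8, Igha at 78.4 and Jchain at 41.2. Its 346 V counts were led by Iglv1 at 11.8%, the effective number of V segments was 22.0, and kappa V counts were 8.66 per 100 Igkc counts. Its mouse is named on the blot list.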
